A study of Mus musculus with 12 samples.

Results

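The livers compared here came from 6 aged male C57BL/6 mice that all ate curcumin (CUR), the yellow polyphenol of turmeric, and that differed in the diet it was mixed into. The HFHSD+CUR group (3 mice) received a high-fat, high-sugar diet, and the NCD+CUR group (3 mice) received the normal control chow. Both diets carried 0.4% CUR by weight for 15 weeks, all mice were wild type, and the study's methods give 18 to 20 months as their age at the start. The labels give 99 weeks for the 3 HFHSD+CUR mice and for 2 of the NCD+CUR mice, and 107 weeks for NCD+CUR replicate 3. Because both groups ate CUR, the comparison asks what the rich diet does to the liver in its presence, and the effect of CUR itself lies outside it. The series holds 12 liver libraries, of which these 6 form the comparison. The other 6 came from mice on HFHSD or NCD without CUR (3 each, labelled 99 weeks except for 1 NCD mouse of 107 weeks). They enter the shared estimate of the spread behind every adjusted p, and their own levels are compared mainly at the end.

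RNA of the left lateral lobe was selected for poly(A) tails and sequenced, and each gene has 1 value per liver in FPKM, mapped fragments scaled by transcript length and library size. The test took genes that averaged 1 FPKM or more across the 6 livers, 10591 of 23997 genes. Differences were taken on log2(FPKM + 0.1), so that 1 unit is a 2-fold change, and a gene is said to have risen, fallen or changed in HFHSD+CUR relative to NCD+CUR where the Benjamini-Hochberg adjusted p of limma was under 0.1.

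The liver takes up and processes dietary fat and sugar. Hepatocytes store or burn fatty acids, turn cholesterol into bile acids, detoxify foreign compounds with cytochrome P450 enzymes and conjugating enzymes, and secrete most plasma proteins through the endoplasmic reticulum (ER). They also present peptides on MHC class I molecules, whose genes are raised by interferon. The gene lists below follow these functions.

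Hepatocyte markers dominated every library, with summed levels of 96695 to 110083 FPKM over 17 genes in HFHSD+CUR livers and 107661 to 119281 FPKM in NCD+CUR livers. The correlation of log2 levels between livers was 0.964 to 0.983 within a group and 0.951 to 0.970 between groups, and no pair of libraries held identical values (0 pairs). The first principal component of the 6 livers (36.2% of the variance) placed all HFHSD+CUR livers, at 23.2, 5.72 and 29.02, above all NCD+CUR livers, at -32.4, -22.01 and -3.62. On the second component (22.7%) HFHSD+CUR replicate 3 lay at -25.2, against 17.2 and 26.4 for the other 2 livers of its group. That liver also had the highest summed levels of neutrophil markers, 122.5 FPKM against 14.5 to 32.3 FPKM in the other 5, and of erythroid markers, 253.3 FPKM against 125.7 to 190.9 FPKM. The ribosomal RNA precursor Rn45s, which has no poly(A) tail, had 16271, 129 and 3339 FPKM in HFHSD+CUR livers, against 109.5, 949.9 and 1714 FPKM in NCD+CUR livers, so the libraries differed widely in leftover ribosomal RNA with overlapping groups. Depth cannot be read from FPKM values, and the study's read totals were not used here. Precision is given by the spread between mice. The study's alignment summary gives HFHSD+CUR replicate 1, the liver with the most Rn45s, the lowest mapping rate of the series. What part this has in the differences below was not tested.

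The rich diet changed 373 genes in the curcumin-fed mice, of which 215 rose (2.03% of tested genes) and 158 fell (1.49%). At an unadjusted p under 0.05 the shares were 8.86% higher and 8.61% lower, and the 3 livers of one group lay wholly above or below those of the other for 11.5% of genes (higher) and 10.6% (lower). All 373 changed genes were free of overlap. Sizes were modest, with a median log2 difference of 0.73 among the genes that rose and -0.67 among those that fell, while 56 rose and 20 fell by at least 2-fold. The median over all tested genes was 0.01. The shares of 2.03% and 1.49% are those to set beside every count of changed list members below.

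The count rested on single livers. It was 29, 365 and 188 when HFHSD+CUR replicates 1, 2 and 3 were left out in turn, and 5, 18 and 638 when NCD+CUR replicates 1, 2 and 3 were. The livers without CUR, which enter only through the shared spread, moved it as well, to 237, 205 and 199 without HFHSD replicates 1, 2 and 3, and to 191, 427 and 609 without NCD replicates 1, 2 and 3. No changed gene turned its sign when any of the 6 curcumin libraries was left out (0 of 373), which was fixed beforehand because none of these genes overlapped. In all 6 of these fits 4 genes passed, Tsku, Abcc3, Clec2h and Rnf135. Of the members of the gene lists below, none passed without NCD+CUR replicate 1 except Tsku, so every other call on a list depends on that liver.

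**Figure D1:**
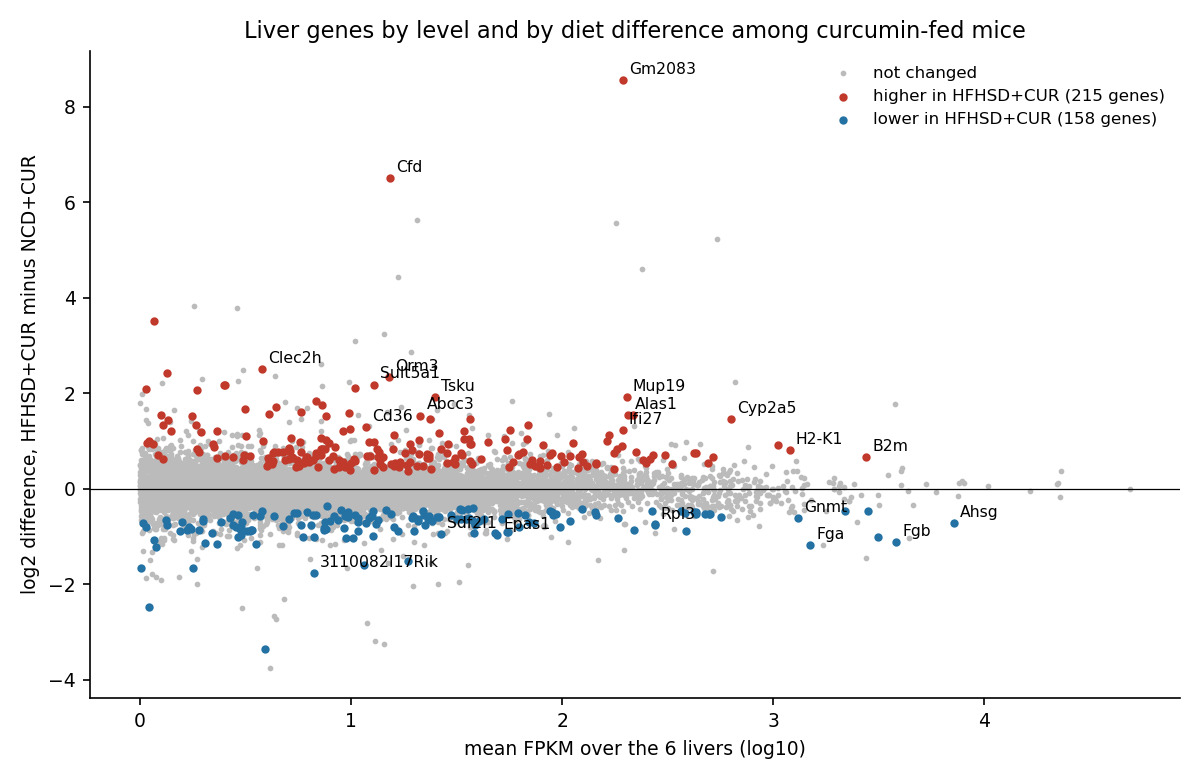
Each point is 1 of 10591 tested genes, by its mean FPKM over the 6 livers (x axis, log10) and its log2 difference between HFHSD+CUR and NCD+CUR (y axis). Red points are the 215 genes that rose and blue points the 158 that fell; the strongly expressed genes that fell include Fgb, Fga and Ahsg.

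The smallest p-value belonged to Tsku, the gene of tsukushi, a small leucine-rich protein that hepatocytes secrete (chr7:98350668-98361390, mm10). Tsku had 41.98, 37.04 and 39.4 FPKM in HFHSD+CUR livers, against 11.4, 8.92 and 10.9 FPKM in NCD+CUR livers. All 3 HFHSD+CUR livers lay more than 3-fold above every NCD+CUR liver, with a log2 difference of 1.92 ± 0.20 (SE, adjusted p = 0.00237) and 1.81 to 1.99 when single curcumin livers were left out. Abcc3, an efflux pump for bile acids and glucuronides, had 37.5, 30.4 and 26.9 FPKM in HFHSD+CUR livers, against 9.58, 9.70 and 13.5 FPKM in NCD+CUR livers (log2 difference 1.53 ± 0.20, adjusted p = 0.0125). Clec2h, a C-type lectin, was low on chow, with 6.61, 6.47 and 6.16 FPKM in HFHSD+CUR livers, against 0.813, 0.747 and 1.87 FPKM in NCD+CUR livers (2.50 ± 0.32, adjusted p = 0.0125). Rnf135, a ubiquitin ligase that activates the RNA sensor RIG-I, had 11.4, 10.1 and 11.04 FPKM in HFHSD+CUR livers, against 6.54, 5.88 and 5.18 FPKM in NCD+CUR livers (0.88 ± 0.12, adjusted p = 0.0125). Abcc3, Clec2h and Rnf135 were picked out after their values were seen, because they and Tsku kept their calls in every leave-one-out fit of the 6 livers.

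Genes were named by size among changed genes that averaged 5 FPKM or more and did not overlap between the groups. The 12 largest rises were Gm2083, Cfd, Orm3, Sult5a1, Gbp11, Mup19, Tsku, 4930404H11Rik, Serpinb1a, Gm4956, Gbp3 and Upp2. Orm3, of the orosomucoid acute phase family, had 21.9, 20.7 and 33.2 FPKM in HFHSD+CUR livers, against 4.25, 7.11 and 3.64 FPKM in NCD+CUR livers (2.34 ± 0.32, adjusted p = 0.0215). Upp2, the liver uridine phosphorylase, was, with Mup19, the most abundant of them, with 279, 333 and 342 FPKM in HFHSD+CUR livers, against 99.9, 72.7 and 174 FPKM in NCD+CUR livers (1.55 ± 0.35, adjusted p = 0.0743). Serpinb1a, an inhibitor of neutrophil proteases, had 13.6, 8.73 and 10.97 FPKM in HFHSD+CUR livers, against 4.43, 1.80 and 4.02 FPKM in NCD+CUR livers (1.74 ± 0.32, adjusted p = 0.0412). Every HFHSD+CUR liver lay above every NCD+CUR liver in these genes because the selection required it. Among the 12, Tsku passed in all 6 leave-one-out fits, Orm3 in 5, Sult5a1, Serpinb1a and Gm4956 in 4, and Mup19 in none.

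The first 2 of that list are of another kind, since they were at or near 0 in all (Cfd) or 2 (Gm2083) of the 3 chow livers. Cfd, which encodes the complement protease adipsin, had 5.76, 45.6 and 40.1 FPKM in HFHSD+CUR livers, against 0, 0.153 and 0.459 FPKM in NCD+CUR livers, and Gm2083 had 93.1, 120.4 and 928 FPKM in HFHSD+CUR livers, against 0.00561, 18.2 and 0 FPKM in NCD+CUR livers. Their fitted log2 differences, 6.51 ± 1.46 and 8.56 ± 2.05, depend on the 0.1 FPKM that was added. Cfd reached the filter only through the rich-diet livers. Gm2083, Gbp11, Mup19, Gm4956, Gbp3 and Orm3 belong to families or pseudogenes of closely similar sequence, so the assignment of their reads is uncertain.

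By the same rule, the 12 largest falls included 3110082I17Rik, Gm10052, Fga, Fgb, Pde9a, Pstpip2, Klhdc7a, Insc, Fgg, Prss8 and Epas1. Epas1, the hypoxia-inducible factor HIF-2 alpha, had 30.7, 37.1 and 32.3 FPKM in HFHSD+CUR livers, against 70.3, 64.3 and 60.9 FPKM in NCD+CUR livers (-0.97 ± 0.15, adjusted p = 0.0215). Every rich-diet liver lay below every chow liver, as the selection required. The uncharacterised 3110082I17Rik had 2.02, 3.54 and 3.52 FPKM in HFHSD+CUR livers, against 12.2, 10.2 and 8.61 FPKM in NCD+CUR livers (-1.77 ± 0.26, adjusted p = 0.0215), and Prss8, the membrane serine protease prostasin, had 8.99, 8.90 and 7.40 FPKM in HFHSD+CUR livers, against 16.1, 15.2 and 19.2 FPKM in NCD+CUR livers (-0.99 ± 0.19, adjusted p = 0.0412). Pde9a, a phosphodiesterase of cyclic GMP, differed less clearly, with 6.04, 6.05 and 6.09 FPKM in HFHSD+CUR livers, against 15.6, 14.1 and 8.93 FPKM in NCD+CUR livers (-1.03 ± 0.25, adjusted p = 0.0789), NCD+CUR replicate 3 lying nearest to the rich diet. Gm10052 passed with an adjusted p of 0.0939, which became 0.133 (limma) when same-numbered libraries with and without CUR shared a block, a pairing described below with the mice without CUR. Among the 12, 3110082I17Rik and Epas1 passed in 5 of the 6 leave-one-out fits, Pstpip2 in 4, and Pde9a and Insc in 1.

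**Figure D2:**
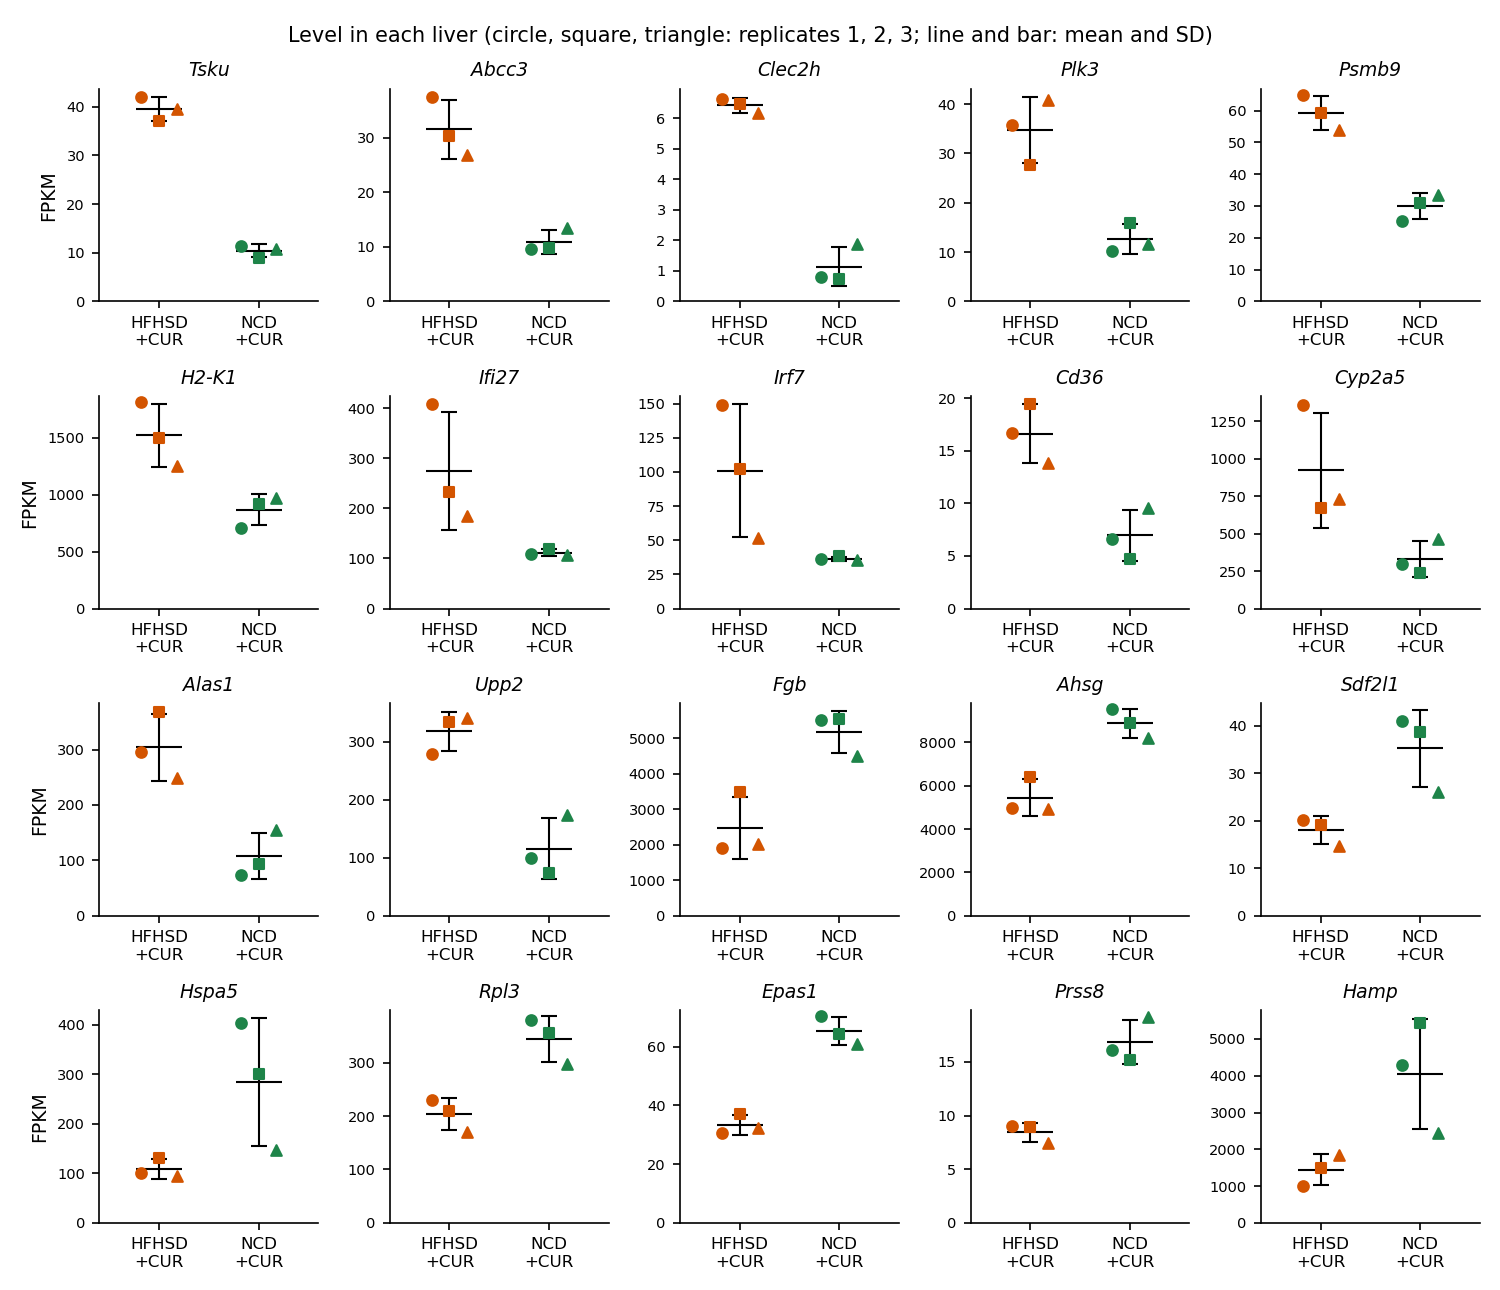
FPKM of 20 genes in each of the 6 livers (y axis, from 0), HFHSD+CUR on the left and NCD+CUR on the right of each panel; the horizontal line is the mean and the bar the SD of 3 mice. The groups are free of overlap in every panel, although Hspa5 and Hamp did not pass the test (adjusted p = 0.117 and 0.176).

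Interferon-induced genes were higher on the rich diet. Of 30 tested genes of the interferon response, 6 rose (Gbp6, Ifi27, Gbp3, Irf9, Gbp7 and Irf7), none fell and 24 did not pass, against 2.03% of all genes that rose, and all 30 differences were positive, with a median log2 difference of 0.68 against 0.01 over all genes. Irf7, the transcription factor that drives interferon production, had 149, 102 and 51.6 FPKM in HFHSD+CUR livers, against 35.99, 38.2 and 35.4 FPKM in NCD+CUR livers (1.34 ± 0.36, adjusted p = 0.0995). Ifi27, an interferon-induced mitochondrial protein, had 409, 232 and 185 FPKM in HFHSD+CUR livers, against 108, 119.5 and 106 FPKM in NCD+CUR livers (1.22 ± 0.23, adjusted p = 0.0412). Gbp6, one of the guanylate-binding GTPases that act against intracellular pathogens, had 7.54, 6.85 and 4.17 FPKM in HFHSD+CUR livers, against 1.80, 1.81 and 2.32 FPKM in NCD+CUR livers (1.56 ± 0.27, adjusted p = 0.0365).

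The chow livers were tightly grouped in these genes and the rich-diet livers were not. HFHSD+CUR replicate 1 was the highest in each of the 3 and replicate 3 the lowest. Over the 30 genes the median deviation from the mean of the 6 livers, in log2 units, was 0.94, 0.42 and -0.11 in HFHSD+CUR replicates 1, 2 and 3, against -0.51, -0.45 and -0.29 in NCD+CUR replicates 1, 2 and 3. Isg15, a ubiquitin-like protein that is strongly induced by interferon, had 115, 56.2 and 22.9 FPKM in HFHSD+CUR livers, against 25.5, 22.7 and 24.8 FPKM in NCD+CUR livers and did not pass (adjusted p = 0.340). Ifit1, which binds foreign RNA, had 16.5, 11.3 and 4.65 FPKM in HFHSD+CUR livers, against 3.13, 3.26 and 4.28 FPKM in NCD+CUR livers (adjusted p = 0.168). Without HFHSD+CUR replicate 3, 14 of the 30 passed, while 4 did without NCD+CUR replicate 3, 2 without HFHSD+CUR replicate 2 and 1 without HFHSD+CUR replicate 1; none passed without NCD+CUR replicate 1 or replicate 2.

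Some genes of MHC class I and of its peptide supply rose as well. Of 19 tested genes of antigen presentation, 7 rose, none fell and 12 did not pass, against 2.03% of all genes that rose, with a median log2 difference of 0.58. Tap1, Tap2 and Tapbp, which load peptides onto class I molecules, were among those that did not pass, with adjusted p of 0.349, 0.206 and 0.123 (limma). Psmb9, a catalytic subunit that the immunoproteasome takes in place of a standard one, had 64.8, 59.1 and 53.99 FPKM in HFHSD+CUR livers, against 25.3, 31.05 and 33.5 FPKM in NCD+CUR livers (0.99 ± 0.15, adjusted p = 0.0215). Its partner Psmb8 had 95.3, 63.6 and 71.2 FPKM in HFHSD+CUR livers, against 44.2, 47.3 and 47.5 FPKM in NCD+CUR livers (adjusted p = 0.0574). Both lay above the chow range in all 3 rich-diet livers, and they were the only members that changed (2 rose, none fell) among 37 proteasome subunits, whose median was -0.10.

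The heavy chain gene H2-K1 had 1809, 1499.9 and 1254 FPKM in HFHSD+CUR livers, against 711, 919 and 966 FPKM in NCD+CUR livers (0.81 ± 0.17, adjusted p = 0.0511), and H2-D1 had 722, 677 and 522 FPKM in HFHSD+CUR livers, against 349, 438 and 414 FPKM in NCD+CUR livers (0.67 ± 0.15, adjusted p = 0.0618). B2m, the light chain shared by all class I molecules, had 3312, 3646 and 3140.2 FPKM in HFHSD+CUR livers, against 1903, 2211 and 2294 FPKM in NCD+CUR livers (0.66 ± 0.15, adjusted p = 0.0679). H2-T23 and H2-Q4 also rose, and reads of the H2 genes may be shared among these near-identical copies. The class II genes of professional antigen-presenting cells did not pass. Cd74, their invariant chain, overlapped, with 93.7, 113 and 176 FPKM in HFHSD+CUR livers, against 80.7, 153 and 98.8 FPKM in NCD+CUR livers (adjusted p = 0.860). Of all 19 genes, 7 passed without NCD+CUR replicate 3 and 6 without HFHSD+CUR replicate 3, but 1 without HFHSD+CUR replicate 1, 1 without NCD+CUR replicate 2 and none without NCD+CUR replicate 1.

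Promoters of 3 of these genes are shown because they carry the interferon-stimulated response element (ISRE), the DNA motif bound by STAT and IRF factors. The RefSeq table (GRCm38.p6, a window around each gene's start) was searched on both strands for GAAA, any 2 bases and GAAA again. The motif was found for 14 of the 22 interferon genes and 2 of the 15 antigen presentation genes that the table holds, against 3.72% of the 8054 tested genes with a promoter. The windows below end before the start site, run 5′ to 3′ along the gene's strand, and have the motif in capitals, read on the reverse strand in Gbp7 and Ifit1 (all are from genes on the plus strand, at chr3:142530238-142530317 for Gbp7, chr19:34640759-34640838 for Ifit1 and chr2:122147503-122147582 for B2m).
Gbp7: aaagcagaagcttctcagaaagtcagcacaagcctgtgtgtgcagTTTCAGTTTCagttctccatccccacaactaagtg
Ifit1: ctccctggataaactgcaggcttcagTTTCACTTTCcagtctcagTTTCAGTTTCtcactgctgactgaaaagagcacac
B2m: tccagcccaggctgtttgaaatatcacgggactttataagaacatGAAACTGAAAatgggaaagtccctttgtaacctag
Gbp7 and B2m rose and Ifit1 did not pass; the Ifit1 window holds 2 matches, and the others 1 each. A match describes the letters only, and binding was not measured.

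**Figure D3:**
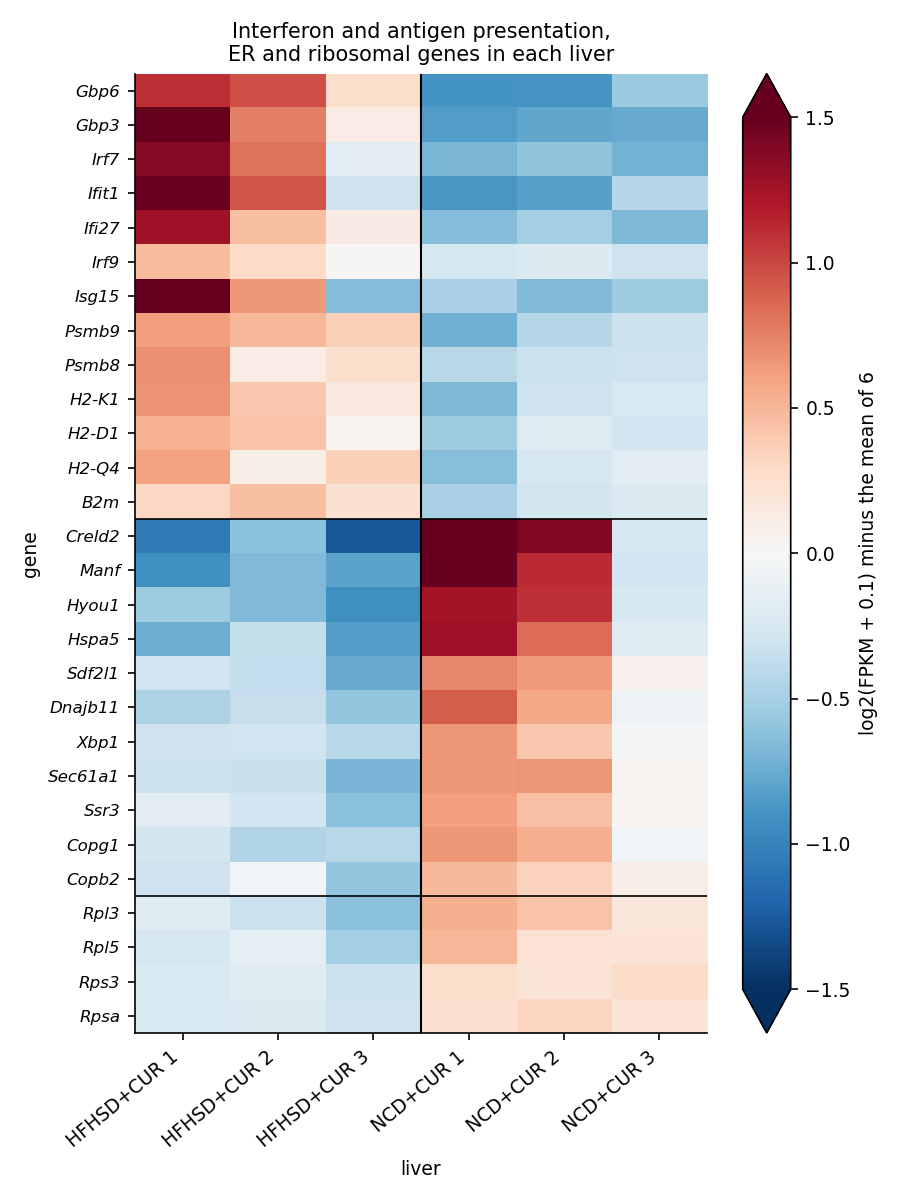
Each row is a gene and each column a liver, HFHSD+CUR to the left of NCD+CUR; colour is log2(FPKM + 0.1) minus the mean of the 6 livers. The upper block (interferon and antigen presentation) is highest in HFHSD+CUR replicate 1 except for B2m, which is highest in HFHSD+CUR replicate 2. In the middle block (ER) NCD+CUR replicates 1 and 2 stand out, while NCD+CUR replicate 3 is nearer to the rich-diet livers.

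Genes that fold and move proteins in the ER were lower on the rich diet. Of 28 genes of the unfolded protein response and ER chaperones, 3 fell (Sdf2l1, Xbp1 and Dnajb11), none rose and 25 did not pass, against 1.49% of all genes that fell. At an unadjusted p under 0.05 the number lower was 16 (8.61% of all genes), and the median log2 difference was -0.55. Xbp1, the transcription factor that is spliced under ER stress, had 84.6, 85.1 and 78.3 FPKM in HFHSD+CUR livers, against 164, 138 and 103 FPKM in NCD+CUR livers (-0.69 ± 0.17, adjusted p = 0.0763). Sdf2l1, an ER protein that works with the chaperone BiP, had 20.2, 19.1 and 14.6 FPKM in HFHSD+CUR livers, against 40.95, 38.8 and 26.04 FPKM in NCD+CUR livers (-0.95 ± 0.21, adjusted p = 0.0551), and Dnajb11, a BiP co-chaperone, had 32.01, 35.2 and 29.9 FPKM in HFHSD+CUR livers, against 83.9, 66.004 and 42.2 FPKM in NCD+CUR livers (adjusted p = 0.0984).

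Larger differences with wider spread were seen in the chaperones themselves. Hspa5, which encodes BiP, had 101, 131 and 94.2 FPKM in HFHSD+CUR livers, against 403, 300.1 and 146 FPKM in NCD+CUR livers (-1.28 ± 0.36, adjusted p = 0.117). Creld2 had 10.9, 14.9 and 9.37 FPKM in HFHSD+CUR livers, against 80.9, 60.05 and 18.9 FPKM in NCD+CUR livers (adjusted p = 0.168), Manf had 14.6, 17.5 and 15.9 FPKM in HFHSD+CUR livers, against 82.5, 60.7 and 22.7 FPKM in NCD+CUR livers (adjusted p = 0.185) and Hyou1 had 10.1, 9.29 and 7.70 FPKM in HFHSD+CUR livers, against 35.1, 31.6 and 12.5 FPKM in NCD+CUR livers (adjusted p = 0.103); all 3 encode ER-resident stress proteins. None of these 4 passed, and NCD+CUR replicate 3 lay far below the other 2 chow livers and close to the rich-diet livers. That mouse is labelled 107 weeks, as is NCD replicate 3, and both were the lowest of their group in these genes: in NCD replicates 1, 2 and 3 Hspa5 had 400.2, 339 and 182 FPKM and Creld2 had 87.99, 65.6 and 19.2 FPKM. Age cannot be told apart from what else the mice numbered 3 may share. With age as a covariate 19 of the 28 genes passed, and 7 did when same-numbered libraries with and without CUR shared a block, among them Hspa5 and Hyou1 (adjusted p = 0.0719 for each, limma). Without NCD+CUR replicate 3, 12 of the 28 genes passed, and none did when NCD+CUR replicate 1 or 2 or HFHSD+CUR replicate 1 or 3 was left out. Ddit3, which encodes the pro-apoptotic factor CHOP, was slightly higher in 2 of the rich-diet livers than in any chow liver, with 11.8, 10.03 and 12.2 FPKM in HFHSD+CUR livers, against 10.3, 8.58 and 8.14 FPKM in NCD+CUR livers (adjusted p = 0.324).

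The same direction held for the secretory pathway. Of 39 genes of ER translocation and of the coats of ER to Golgi vesicles, 7 fell (Sec61a1, Copg1, Ssr3, Copb2, Ssr4, Copb1 and Copa), none rose and 32 did not pass, against 1.49% of all genes that fell, with 22 lower at an unadjusted p under 0.05 and a median of -0.43. Sec61a1, the main subunit of the channel through which new proteins enter the ER, had 41.2, 41.2 and 31.96 FPKM in HFHSD+CUR livers, against 81.1, 82.1 and 53.05 FPKM in NCD+CUR livers (-0.90 ± 0.20, adjusted p = 0.0589). Copg1, of the COPI coat, had 17.6, 15.5 and 15.9 FPKM in HFHSD+CUR livers, against 33.4, 30.98 and 20.7 FPKM in NCD+CUR livers (-0.76 ± 0.18, adjusted p = 0.0699). COPI was represented by 4 subunits among the 7 and the translocon-associated complex by Ssr3 and Ssr4. NCD+CUR replicate 3 was the lowest chow liver in each of the 7, and 21 of the 39 passed without it and 23 with age as a covariate, but none when NCD+CUR replicate 1 or 2 or HFHSD+CUR replicate 1 or 3 was left out.

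Promoters of 4 chaperone genes are given because they carry the ER stress response element, CCAAT and CCACG separated by any 9 bases, which ATF6 with NF-Y is known to bind. This motif was added after the values were seen. It was found on either strand for 9 of the 24 ER chaperone genes in the promoter table and for none of 34 translocation and coat genes (0 of 34), against 15 of 8054 tested genes (0.186%); CCAAT alone was found for 21 of the 24 and for 42.7% of all. In the windows below the motif is in capitals, and it reads on the reverse strand in Creld2 and Hsp90b1. Their places are chr2:34771989-34772068 for Hspa5, chr15:88819484-88819563 for Creld2 and chr12:17266455-17266534 for Pdia6 on the plus strand, and chr10:86705508-86705587 for Hsp90b1 on the minus strand.
Hspa5: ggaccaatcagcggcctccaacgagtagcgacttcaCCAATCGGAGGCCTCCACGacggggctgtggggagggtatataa
Creld2: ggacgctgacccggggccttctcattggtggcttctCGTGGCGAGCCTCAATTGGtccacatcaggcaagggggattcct
Pdia6: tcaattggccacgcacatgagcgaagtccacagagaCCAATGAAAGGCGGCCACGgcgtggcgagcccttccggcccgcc
Hsp90b1: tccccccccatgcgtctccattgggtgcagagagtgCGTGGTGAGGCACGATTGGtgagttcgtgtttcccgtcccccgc
The adjusted p was 0.111 for Pdia6, a disulfide isomerase with 119, 109 and 77.9 FPKM in HFHSD+CUR livers, against 179, 148 and 129 FPKM in NCD+CUR livers. For Hsp90b1, the ER member of the HSP90 family, it was 0.242, with 262, 256 and 209 FPKM in HFHSD+CUR livers, against 468, 338 and 264 FPKM in NCD+CUR livers. Neither passed, although the groups did not overlap (with the block of same-numbered libraries the adjusted p of Pdia6 was 0.0845, limma). Of the 3 genes of the list that fell, Sdf2l1 and Dnajb11 hold CCAAT but not the full element in the promoter table. Xbp1 had no match there, and whether its promoter was held is not given.

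Cytosolic ribosomal protein genes were lower as a group by a small amount. Of 82 tested, 9 fell, none rose and 73 did not pass, against 1.49% of all genes that fell; 77 differences were negative, and the median was -0.33. Rpl3 had 231, 210.3 and 170.4 FPKM in HFHSD+CUR livers, against 381, 356 and 297 FPKM in NCD+CUR livers (-0.76 ± 0.15, adjusted p = 0.0435), and Rps3 had 121, 125 and 113 FPKM in HFHSD+CUR livers, against 170.02, 161 and 171 FPKM in NCD+CUR livers (-0.49 ± 0.10, adjusted p = 0.0525). Others that fell were Rpl5, Rpsa, Rpl4, Rps4x, Rps6 and Rplp0. Processed pseudogenes of ribosomal proteins are common, so read assignment is uncertain for them. The median stayed between -0.37 and -0.28 in every leave-one-out fit of the 6 curcumin libraries, while the number that passed was 10 without NCD+CUR replicate 3, 5, 2 and 1 without HFHSD+CUR replicates 2, 3 and 1, and 0 without NCD+CUR replicate 1 or 2.

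Mitochondrial genes did not follow them. Among 77 mitochondrial ribosomal proteins 1 rose (Mrpl45) and none fell, with a median of -0.01, and among 77 nuclear genes of oxidative phosphorylation none passed (5 at an unadjusted p under 0.05), with a median of 0.01. Heat shock chaperones, a list that holds both cytosolic and mitochondrial members, were mixed, with a median of -0.32. Of 15 tested, 2 rose, against 2.03% of all genes that rose: Dnajb1 (8.08, 9.44 and 7.67 FPKM in HFHSD+CUR livers, against 4.59, 4.70 and 6.27 FPKM in NCD+CUR livers, adjusted p = 0.0788) and Hsph1 (4.41, 5.36 and 4.18 FPKM in HFHSD+CUR livers, against 3.22, 3.28 and 3.43 FPKM in NCD+CUR livers, adjusted p = 0.0934).

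Several enzymes of foreign compound metabolism rose. Of 35 cytochrome P450 genes of families 1 to 3, 8 rose (Cyp2a12, Cyp1a2, Cyp2c37, Cyp2c50, Cyp2c54, Cyp2a5, Cyp2j6 and Cyp2g1), none fell and 27 did not pass, against 2.03% of all genes that rose, with a median log2 difference of 0.30. Cyp2g1 was low, with 1.64, 1.86 and 2.10 FPKM in HFHSD+CUR livers, against 0.271, 0.544 and 1.155 FPKM in NCD+CUR livers. It reached the filter only through the rich-diet livers, as did Cyp2b13 below. Cyp2a5, the coumarin hydroxylase, had 1360.5, 671 and 734 FPKM in HFHSD+CUR livers, against 295, 237 and 466 FPKM in NCD+CUR livers (1.46 ± 0.37, adjusted p = 0.0948). Cyp1a2, an enzyme of caffeine and aromatic amine oxidation, had 317, 208 and 179.7 FPKM in HFHSD+CUR livers, against 130.2, 119 and 139 FPKM in NCD+CUR livers (0.82 ± 0.20, adjusted p = 0.0756). In both, HFHSD+CUR replicate 1 was the highest liver and no liver crossed between groups. Cyp2c37, which marks hepatocytes around the central vein, had 263, 233 and 249.8 FPKM in HFHSD+CUR livers, against 131, 103 and 177 FPKM in NCD+CUR livers (0.90 ± 0.22, adjusted p = 0.0788). Cyp2b9 and Cyp2b13 had larger but more variable values, 62.97, 22.9 and 14.6 FPKM in HFHSD+CUR livers, against 2.02, 2.55 and 9.91 FPKM in NCD+CUR livers for Cyp2b9 (adjusted p = 0.175) and 12.4, 1.51 and 2.69 FPKM in HFHSD+CUR livers, against 0.0890, 0.101 and 0.469 FPKM in NCD+CUR livers for Cyp2b13 (adjusted p = 0.122, and 0.0828 with the block of same-numbered libraries, limma). Most of these genes lie in clusters of close copies, so the split of reads among them is uncertain; 9 passed without NCD+CUR replicate 3, 4 without HFHSD+CUR replicate 2, 2 without HFHSD+CUR replicate 3, and none when NCD+CUR replicate 1 or 2 or HFHSD+CUR replicate 1 was left out.

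Alas1, which makes the first committed precursor of the heme that P450 enzymes carry, rose as well; it was named after its values were seen. It had 296, 368 and 248 FPKM in HFHSD+CUR livers, against 74.2, 93.8 and 155 FPKM in NCD+CUR livers (1.55 ± 0.31, adjusted p = 0.0526), at least 1.5 times as high in every rich-diet liver as in any chow liver. Of 20 conjugating enzymes, 4 rose (Sult5a1, Ugt1a6b, Sult1c2 and Ugt3a1), 1 fell (Ugt2b38) and 15 did not pass, against 2.03% of all genes that rose and 1.49% that fell, with a median of 0.39. Without NCD+CUR replicate 3, 6 passed, 2 without HFHSD+CUR replicate 2 or 3, 1 without NCD+CUR replicate 2 and 0 without HFHSD+CUR replicate 1. Ugt2b38 was near the floor, with 0.0627, 0.287 and 0.505 FPKM in HFHSD+CUR livers, against 2.14, 2.62 and 0.995 FPKM in NCD+CUR livers. It reached the filter only through the chow livers. Sult5a1, a sulfotransferase, had 20.8, 17.7 and 23.5 FPKM in HFHSD+CUR livers, against 4.26, 8.08 and 2.55 FPKM in NCD+CUR livers (2.18 ± 0.35, adjusted p = 0.0365), and Ugt1a6b, a glucuronosyltransferase of phenols, had 319, 226 and 303 FPKM in HFHSD+CUR livers, against 150.3, 158 and 185 FPKM in NCD+CUR livers (0.77 ± 0.16, adjusted p = 0.0511). None of 21 glutathione S-transferases passed (0 at an unadjusted p under 0.05), and their median was 0.25. Among 25 antioxidant genes and NRF2 targets 1 rose (2 changed with the block of same-numbered libraries), the quinone reductase Nqo1, with 10.4, 7.77 and 4.97 FPKM in HFHSD+CUR livers, against 3.93, 3.07 and 4.23 FPKM in NCD+CUR livers (0.98 ± 0.26, adjusted p = 0.0934).

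Zonation markers can be read beside these enzymes. Of 13 genes of hepatocytes around the central vein, 3 rose (Slc22a3, Cyp1a2 and Cyp2c37) and none fell, against 2.03% of all genes that rose and 1.49% that fell. Their summed level was 5668 to 6839.8 FPKM in HFHSD+CUR livers and 4047 to 5650.3 FPKM in NCD+CUR livers. Of 13 genes of hepatocytes around the portal vein none passed (2 at an unadjusted p under 0.05), 7 differences were positive and the median was 0.05. Their summed level was 4742 to 5134 FPKM in HFHSD+CUR livers and 6134 to 8703 FPKM in NCD+CUR livers, but without the iron hormone Hamp the other 12 summed to 3742, 3572 and 3290.2 FPKM in HFHSD+CUR livers, against 2568, 3280.2 and 3679.7 FPKM in NCD+CUR livers, with overlap. Hamp itself had 1000.3, 1502 and 1844 FPKM in HFHSD+CUR livers, against 4283, 5423 and 2454 FPKM in NCD+CUR livers. The part of zonation in the P450 difference was not tested.

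**Figure D4:**
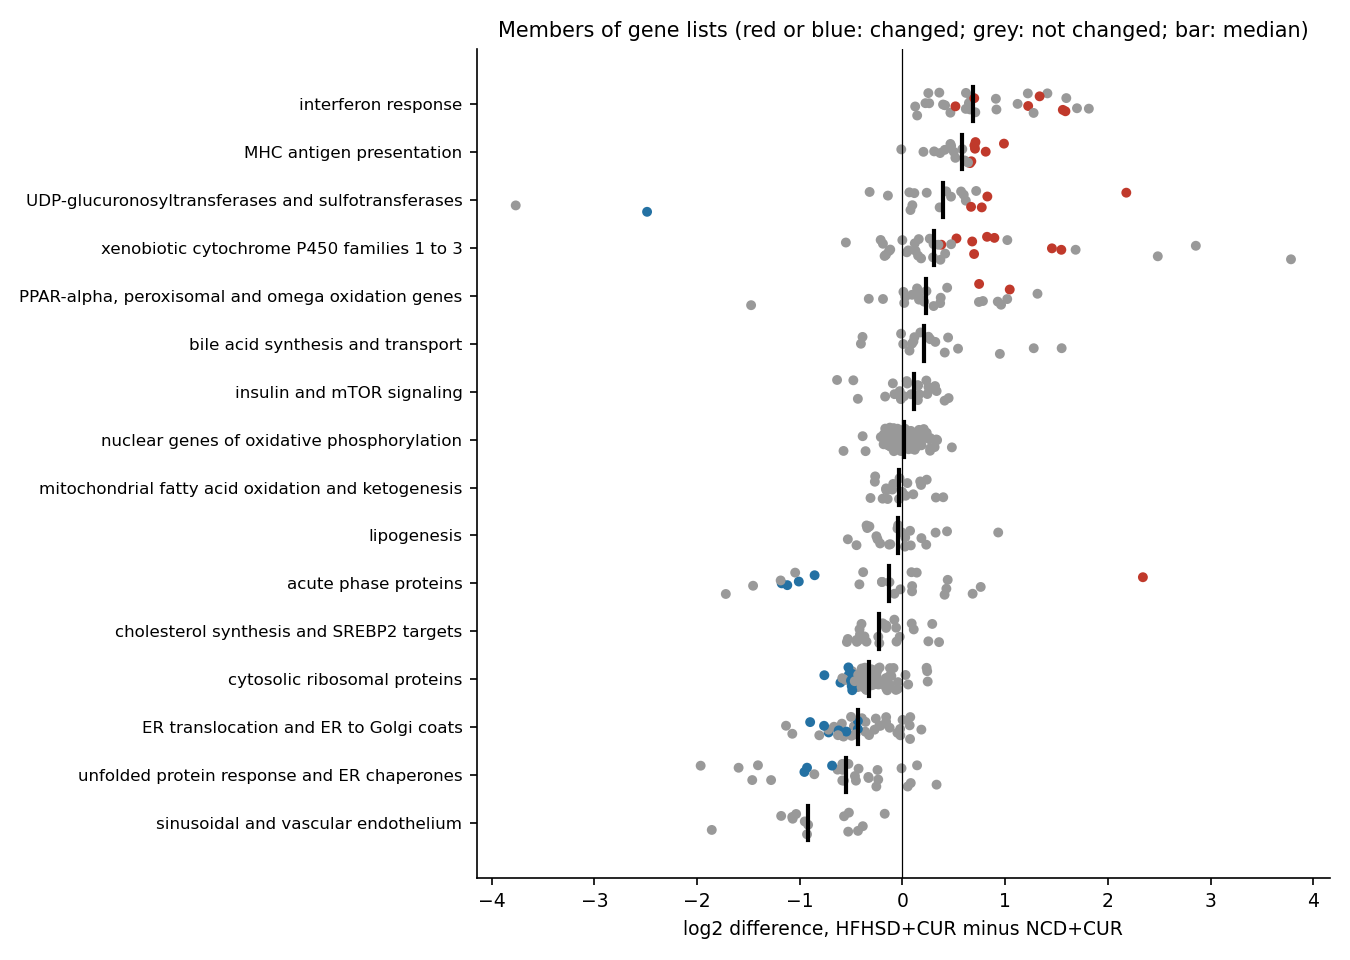
Each point is a tested member of a gene list by its log2 difference between HFHSD+CUR and NCD+CUR (x axis), red where it rose, blue where it fell and grey where it did not pass; the black bar is the median of the list. Medians run from 0.68 for the interferon response to -0.92 for endothelial markers, where no single gene passed.

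Few genes of lipid metabolism changed. Of 18 genes of lipid storage, 1 rose, against 2.03% of all genes that rose. It was Cd36, a fatty acid transporter, with 16.7, 19.4 and 13.8 FPKM in HFHSD+CUR livers, against 6.64, 4.70 and 9.53 FPKM in NCD+CUR livers (1.29 ± 0.26, adjusted p = 0.0511). Pparg, the nuclear receptor that drives Cd36 in fatty liver, had 5.26, 9.04 and 6.86 FPKM in HFHSD+CUR livers, against 3.11, 3.25 and 3.86 FPKM in NCD+CUR livers (1.00 ± 0.31), free of overlap but not past the threshold (adjusted p = 0.140). The lipid droplet coat gene Plin2 had 196, 261 and 118 FPKM in HFHSD+CUR livers, against 269, 385 and 247 FPKM in NCD+CUR livers (adjusted p = 0.282), and Cidea, a droplet fusion protein, had 2.86, 14.1 and 4.88 FPKM in HFHSD+CUR livers, against 0.767, 0.463 and 3.06 FPKM in NCD+CUR livers (adjusted p = 0.280). The groups overlapped in both.

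Of 22 genes of lipogenesis none passed (0 at an unadjusted p under 0.05), and the median was -0.05. Fasn, the fatty acid synthase, had 52.4, 37.4 and 37.3 FPKM in HFHSD+CUR livers, against 36.8, 53.98 and 112 FPKM in NCD+CUR livers (adjusted p = 0.627), where NCD+CUR replicate 3 was the highest liver of all, and Scd1, the stearoyl desaturase, had 1249.6, 1328 and 1124 FPKM in HFHSD+CUR livers, against 1192, 1733 and 1762 FPKM in NCD+CUR livers (adjusted p = 0.607). Of 25 genes of cholesterol synthesis and SREBP2 targets none passed either (0 at an unadjusted p under 0.05), although 20 differences were negative, with a median of -0.23. Sqle, the squalene epoxidase, had 31.4, 33.8 and 32.6 FPKM in HFHSD+CUR livers, against 37.9, 42.2 and 51.1 FPKM in NCD+CUR livers (adjusted p = 0.531). The groups did not overlap for Sqle.

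Of 25 PPAR alpha targets and genes of peroxisomal and omega oxidation, 2 rose (Acaa1b and Cyp4a12a), none fell and 23 did not pass, against 2.03% of all genes that rose. The median was 0.23, and 4 members changed with the block of same-numbered libraries. Acaa1b, a peroxisomal thiolase, had 555, 579 and 457 FPKM in HFHSD+CUR livers, against 292, 324 and 328 FPKM in NCD+CUR livers (0.75 ± 0.17, adjusted p = 0.0627), and Cyp4a12a, a male-typical omega hydroxylase, had 49.6, 48.9 and 47.1 FPKM in HFHSD+CUR livers, against 18.8, 32.6 and 21.1 FPKM in NCD+CUR livers (1.04 ± 0.25, adjusted p = 0.0788). Cyp4a14 had 129, 77.4 and 28.8 FPKM in HFHSD+CUR livers, against 31.7, 20.3 and 60.7 FPKM in NCD+CUR livers, with overlap (adjusted p = 0.554). The hormone Fgf21 had 1.70, 9.38 and 1.63 FPKM in HFHSD+CUR livers, against 9.98, 6.98 and 8.75 FPKM in NCD+CUR livers (adjusted p = 0.278), low in 2 of the 3 rich-diet livers. Of 21 genes of mitochondrial fatty acid oxidation none passed (1 at an unadjusted p under 0.05), with a median of -0.03.

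Bile acid genes leaned upward without a call. None of 18 passed (5 at an unadjusted p under 0.05, all higher), and the median was 0.21. Cyp7a1, the rate-limiting enzyme of bile acid synthesis, had 37.3, 58.6 and 54.2 FPKM in HFHSD+CUR livers, against 16.5, 6.35 and 44.4 FPKM in NCD+CUR livers (1.55 ± 0.91, adjusted p = 0.413), Cyp8b1, which sets the share of cholic acid, had 99.95, 221 and 169 FPKM in HFHSD+CUR livers, against 52.3, 68.8 and 72.3 FPKM in NCD+CUR livers (adjusted p = 0.200), and Nr0b2, the corepressor SHP, had 35.5, 37.99 and 31.2 FPKM in HFHSD+CUR livers, against 11.9, 18.5 and 26.3 FPKM in NCD+CUR livers (adjusted p = 0.147). The groups did not overlap for Cyp8b1 and Nr0b2, while NCD+CUR replicate 3 lay within the rich-diet range for Cyp7a1. Of 22 apolipoproteins and lipoprotein genes none passed (4 at an unadjusted p under 0.05), with a median of -0.08.

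Fibrinogen fell in all 3 of its chains, which lie side by side on chromosome 3 (mm10, Fgg at chr3:83007724-83015056, Fga at chr3:83026153-83033627 and Fgb at chr3:83042246-83049863) and form the clotting protein together. Fgb had 1908, 3482 and 2018 FPKM in HFHSD+CUR livers, against 5530.4, 5535 and 4511 FPKM in NCD+CUR livers (-1.12 ± 0.21, adjusted p = 0.0412). Fga had 798, 1408 and 635 FPKM in HFHSD+CUR livers, against 2344, 2171 and 1616 FPKM in NCD+CUR livers (-1.18 ± 0.28, adjusted p = 0.0789). Fgg had 1823, 2716 and 1729.9 FPKM in HFHSD+CUR livers, against 4709, 4534 and 3274 FPKM in NCD+CUR livers (-1.01 ± 0.20, adjusted p = 0.0412). HFHSD+CUR replicate 2 was the highest rich-diet liver for each chain and still below every chow liver. Fgb and Fgg passed in 3 of the 6 leave-one-out fits and Fga in 2, and each lost the call without NCD+CUR replicate 1 or 2 or HFHSD+CUR replicate 1, where the adjusted p reached 0.218 for Fgb, 0.229 for Fgg and 0.304 for Fga, which also lost it without HFHSD+CUR replicate 3.

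Of the 25 acute phase genes 1 rose (Orm3), 4 fell (the 3 fibrinogen chains and Serpina3m) and 20 did not pass, with a median of -0.13. Of all genes, 2.03% rose and 1.49% fell, which also stand beside the counts that follow. At an unadjusted p under 0.05, 9 members were lower and 2 higher, against 8.61% and 8.86% of all genes. Saa1, serum amyloid A, overlapped, with 195, 1684 and 337 FPKM in HFHSD+CUR livers, against 601, 503 and 156 FPKM in NCD+CUR livers (adjusted p = 0.890). Of 33 complement and coagulation genes 1 fell, C8b of the membrane attack complex, with 54.7, 88.6 and 72.6 FPKM in HFHSD+CUR livers, against 126, 131 and 112 FPKM in NCD+CUR livers (-0.80 ± 0.19, adjusted p = 0.0699), and 32 did not pass. Ahsg, which encodes the plasma protein fetuin-A, fell, with 4984, 6422 and 4921 FPKM in HFHSD+CUR livers, against 9558, 8872 and 8224 FPKM in NCD+CUR livers (-0.72 ± 0.14, adjusted p = 0.0412); with Tsku it was one of 2 changed genes among 18 hepatokines. Of 17 iron genes 1 fell, Hamp2, a copy of the hepcidin gene, with 268, 246 and 303 FPKM in HFHSD+CUR livers, against 514, 439 and 553 FPKM in NCD+CUR livers (-0.88 ± 0.21, adjusted p = 0.0679). Hamp itself, whose hormone blocks iron export, was lower in every rich-diet liver but not past the threshold (-1.45 ± 0.50, adjusted p = 0.176), and reads may be shared between the 2 copies.

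Glucose and insulin genes did not pass. None of 12 genes of gluconeogenesis (2 at an unadjusted p under 0.05), 20 of glycolysis, fructose and glycogen (3) and 24 of insulin and mTOR signaling (2) changed, with medians of 0.08, -0.14 and 0.12. Pck1, of gluconeogenesis, had 1083, 1201 and 1099 FPKM in HFHSD+CUR livers, against 521, 1051 and 987 FPKM in NCD+CUR livers (adjusted p = 0.394), and G6pc, the glucose-6-phosphatase, had 63.1, 91.8 and 93.02 FPKM in HFHSD+CUR livers, against 20.3, 34.4 and 100.5 FPKM in NCD+CUR livers (adjusted p = 0.438). Insr, the insulin receptor, had 15.1, 14.5 and 16.03 FPKM in HFHSD+CUR livers, against 13.8, 14.2 and 13.3 FPKM in NCD+CUR livers (adjusted p = 0.568), a difference of 0.15 ± 0.13 on the log2 scale. Ide, the insulin-degrading enzyme, had 24.1, 24.5 and 20.6 FPKM in HFHSD+CUR livers, against 24.8, 18.5 and 15.6 FPKM in NCD+CUR livers (0.25 ± 0.18, adjusted p = 0.493), with overlapping groups. Trib1, a pseudokinase, had the smallest p of the insulin list, with 13.98, 13.5 and 12.98 FPKM in HFHSD+CUR livers, against 8.02, 9.94 and 11.97 FPKM in NCD+CUR livers (adjusted p = 0.174). Irs2 was not among the tested genes.

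Of 29 genes of the urea cycle and amino acid breakdown, 2 rose (Bckdhb and Agxt2), 2 fell (Gnmt and Cps1) and 25 did not pass, against 2.03% of all genes that rose and 1.49% that fell. Bckdhb, a subunit of the branched-chain ketoacid dehydrogenase, had 136, 96.004 and 135 FPKM in HFHSD+CUR livers, against 71.6, 78.4 and 75.04 FPKM in NCD+CUR livers (0.69 ± 0.15, adjusted p = 0.0526). Gnmt, which uses up methyl groups of S-adenosylmethionine, had 1254, 931 and 916 FPKM in HFHSD+CUR livers, against 1648, 1511 and 1567 FPKM in NCD+CUR livers (-0.62 ± 0.15, adjusted p = 0.0699). Cps1, the first enzyme of the urea cycle, had 239, 173 and 202 FPKM in HFHSD+CUR livers, against 389, 348 and 293 FPKM in NCD+CUR livers (-0.75 ± 0.21, adjusted p = 0.0984). Each of these 3 genes separated the groups fully. Of the 29 genes, 5 passed without NCD+CUR replicate 3, 2 without HFHSD+CUR replicate 2, 1 without HFHSD+CUR replicate 1 and 0 without HFHSD+CUR replicate 3 or NCD+CUR replicate 2.

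The growth hormone and clock lists held 1 change each. Cish, which is induced by growth hormone through STAT5 and dampens its signal, had 16.8, 8.37 and 9.07 FPKM in HFHSD+CUR livers, against 4.57, 3.22 and 3.47 FPKM in NCD+CUR livers (1.52 ± 0.27, adjusted p = 0.0411), while Igf1, the main hormone made under it, had 155, 186 and 157 FPKM in HFHSD+CUR livers, against 178, 207 and 165 FPKM in NCD+CUR livers (adjusted p = 0.639); 1 of 15 genes of that list rose. Nfil3, a repressor of the clock output, had 8.33, 8.07 and 9.41 FPKM in HFHSD+CUR livers, against 4.36, 5.68 and 5.17 FPKM in NCD+CUR livers (0.76 ± 0.20, adjusted p = 0.0892), and 15 of 16 clock genes did not pass. Of 14 major urinary protein genes 1 rose, Mup19, while the median of the family, 1.23, ranged from 0.56 to 1.91 when single curcumin livers were left out. Plk3, a stress-responsive polo-like kinase, and Cipc, a repressor of CLOCK, were named after their values were seen because they passed in 5 of 6 leave-one-out fits; Plk3 had 35.8, 27.7 and 40.9 FPKM in HFHSD+CUR livers, against 10.3, 15.97 and 11.7 FPKM in NCD+CUR livers (1.46 ± 0.23, adjusted p = 0.0261) and Cipc had 15.5, 12.5 and 21.1 FPKM in HFHSD+CUR livers, against 8.24, 8.44 and 7.47 FPKM in NCD+CUR livers (adjusted p = 0.0327).

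Of 23 listed cell cycle genes 9 were tested and 2 rose, against 2.03% of all genes that rose. They were Birc5, the mitotic protein survivin, with 3.25, 1.85 and 2.92 FPKM in HFHSD+CUR livers, against 0.679, 1.37 and 0.990 FPKM in NCD+CUR livers (adjusted p = 0.0525), and Ccnd1, cyclin D1, with 9.45, 11.4 and 9.43 FPKM in HFHSD+CUR livers, against 5.66, 6.86 and 6.22 FPKM in NCD+CUR livers (0.68 ± 0.15, adjusted p = 0.0580). None of 17 senescence genes passed (0 at an unadjusted p under 0.05), with a median of 0.00, and the cell cycle inhibitor Cdkn1a had 1.58, 1.29 and 1.92 FPKM in HFHSD+CUR livers, against 2.91, 1.97 and 1.45 FPKM in NCD+CUR livers (adjusted p = 0.518). Of 35 genes of autophagy and lysosomes 1 rose and none fell. None of 24 nuclear receptors and hepatocyte transcription factors (4 at an unadjusted p under 0.05), of 18 matrix genes (3) and of 10 nuclear noncoding and paraspeckle genes (1) passed. Neat1, the scaffold RNA of paraspeckles, had 438, 215 and 374 FPKM in HFHSD+CUR livers, against 293, 273 and 264 FPKM in NCD+CUR livers (adjusted p = 0.617).

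Markers of other liver cells differed too, and in whole tissue fewer cells of a type and less RNA per cell cannot be told apart. All 14 tested endothelial markers were lower on the rich diet, with a median log2 difference of -0.92, but none passed (8 at an unadjusted p under 0.05). Lyve1, a receptor of sinusoidal endothelium, had 0.287, 1.08 and 0.554 FPKM in HFHSD+CUR livers, against 2.67, 1.48 and 3.14 FPKM in NCD+CUR livers (-1.86 ± 0.54, adjusted p = 0.118), and Pecam1, a junction protein of all endothelium, had 1.37, 1.69 and 3.78 FPKM in HFHSD+CUR livers, against 5.46, 3.85 and 3.91 FPKM in NCD+CUR livers (-1.04 ± 0.31, adjusted p = 0.122). Lyve1 reached the filter only through the chow livers. The summed level of 16 markers was 51.2 to 124 FPKM in HFHSD+CUR livers and 102 to 139 FPKM in NCD+CUR livers. HFHSD+CUR replicate 3 was the liver within the chow range, and without it 11 of the 14 passed, against 1 without HFHSD+CUR replicate 2.

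Of 17 hepatocyte markers 2 fell, Fgb and Cps1, and none rose. Of 11 stellate cell and fibroblast markers 1 fell, Lrat, which stores vitamin A as retinyl esters, with 1.74, 2.44 and 2.69 FPKM in HFHSD+CUR livers, against 5.52, 3.58 and 3.91 FPKM in NCD+CUR livers (-0.89 ± 0.22, adjusted p = 0.0788). Of 14 Kupffer cell and macrophage markers 1 rose, Mpeg1, with 29.4, 19.4 and 25.4 FPKM in HFHSD+CUR livers, against 16.8, 15.2 and 10.3 FPKM in NCD+CUR livers (0.82 ± 0.22, adjusted p = 0.0934); the summed level of the list overlapped, at 262 to 513 FPKM in HFHSD+CUR livers and 215 to 372 FPKM in NCD+CUR livers. None of the tested markers of lipid-associated macrophages (7), cholangiocytes (5), B and plasma cells (7), T and NK cells (6), neutrophils (5), erythroid cells (5), pancreas and gut (4) or RNA without a poly(A) tail (6) passed, and at an unadjusted p under 0.05 there were 1, 1, 0, 0, 0, 0, 1 and 1. Cholangiocyte markers summed to 60.8 to 84.2 FPKM in HFHSD+CUR livers and 87.6 to 147 FPKM in NCD+CUR livers, without overlap. T and NK cell markers summed to 22.3 to 34.7 FPKM in HFHSD+CUR livers and 12.2 to 28.6 FPKM in NCD+CUR livers. The part of these cells in the interferon and MHC differences was not tested. Among 14 handling and immediate early genes 1 rose, Fosl2, with 2.03, 2.31 and 3.01 FPKM in HFHSD+CUR livers, against 1.31, 1.51 and 1.32 FPKM in NCD+CUR livers (adjusted p = 0.0948).

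Adipocyte markers did not move as one. Car3, a carbonic anhydrase that hepatocytes also express, rose, with 1072, 1836 and 1238 FPKM in HFHSD+CUR livers, against 677, 658 and 831 FPKM in NCD+CUR livers (0.91 ± 0.22, adjusted p = 0.0788), as did Cfd, whereas Fabp4, the fatty acid binding protein of adipocytes and macrophages, had 7.74, 7.57 and 20.8 FPKM in HFHSD+CUR livers, against 53.7, 36.9 and 16.2 FPKM in NCD+CUR livers (adjusted p = 0.278). Lep and Plin1 were listed at 0 in all 6 livers.

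The same diet comparison in the 6 mice without CUR shares no library with this one, but the 2 comparisons were not independent. Within each diet, libraries with the same replicate number deviated together from their group means: the correlations across genes were 0.16, 0.36 and 0.18 between HFHSD+CUR and HFHSD replicates 1, 2 and 3, and 0.34, 0.31 and 0.53 between NCD+CUR and NCD replicates 1, 2 and 3, while libraries of different numbers gave at most 0.02 on HFHSD and 0.07 on NCD. The deviations of a group cancel out, so high values for the same number lower those for different numbers. What the numbers share is not given in the labels. The fit over 12 libraries takes them as independent; with the 6 curcumin libraries alone 114 genes rose and 75 fell, and with same-numbered libraries of a diet as a block 263 rose and 202 fell. Over the same 10591 genes, 296 rose (2.79%) and 206 fell (1.95%) in HFHSD livers against NCD livers. Of the 373 genes that changed in curcumin-fed mice, 370 had the same sign without CUR and 3 the opposite, and 195 also passed there in the same direction, which is 52.3% of the 373 and 38.8% of the 502 genes that changed without CUR. Over all tested genes 73.1% had the same sign, and the differences with and without CUR correlated across genes with r = 0.65 (Pearson) and rho = 0.64 (Spearman), where genes are not independent replicates and same-numbered livers add shared deviations to both. The count of 502 became 191, 105 and 190 without HFHSD replicates 1, 2 and 3, and 55, 56 and 1746 without NCD replicates 1, 2 and 3. It was 334 without NCD+CUR replicate 2.

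The test of the difference between the diet effects, with CUR minus without CUR, called no gene (limma, 0 at an adjusted p under 0.1), and 151 genes had an unadjusted p under 0.05 (1.43%). With same-numbered libraries as a block it again called none (0 genes), by a common correlation of 0.39 or by a fixed term for each pair, and 534 and 585 genes had an unadjusted p under 0.05. The 178 genes that passed only with CUR are therefore not shown to differ. Of them, 18 had an unadjusted p under 0.05 in the test without the block. The 1.43% of that test is below the share that a 0.05 threshold gives where nothing differs. It therefore does not measure how alike the diet effects are. The log2 diet difference of Tsku was 1.92 with CUR and 1.89 without, that of Abcc3 1.53 with and 1.58 without, and that of Psmb9 0.99 with and 0.71 without. For Fgb the log2 difference was -1.12 with CUR and -0.78 without (difference -0.34 ± 0.30, adjusted p = 1.00, limma).

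Among genes that averaged 5 FPKM or more, 4 in each direction had the smallest p of the difference. Pstpip2, an actin-bundling adaptor of macrophages, fell with CUR, with 7.09, 7.23 and 5.84 FPKM in HFHSD+CUR livers, against 12.9, 14.5 and 13.8 FPKM in NCD+CUR livers, and its log2 difference was -1.03 with CUR and -0.26 without (difference -0.77 ± 0.25, adjusted p = 1.00, limma). The others on that side were Rmnd1 (-1.39), Tom1l1 (-0.42) and Klf9 (-0.93), with the log2 difference of the diet effects in brackets. On the positive side were Cyb5r1 (0.55), Psmg4 (0.76), Zfp932 (0.52) and Fbxl12 (0.63). None of the 8 passed after adjustment. The list medians with and without CUR were 0.68 and 0.68 for the interferon response and 0.58 and 0.38 for antigen presentation. They were -0.55 and -0.35 for ER chaperones, -0.33 and -0.43 for cytosolic ribosomal proteins and -0.92 and -1.14 for endothelial markers. The medians of some other lists took opposite signs, with 0.27 and -0.43 for B and plasma cells and 0.51 and -0.12 for T and NK cells. So did those of Kupffer cells and macrophages (0.39 and -0.03) and of heat shock chaperones (-0.32 and 0.07). These differences between medians were not tested.

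**Figure D5:**
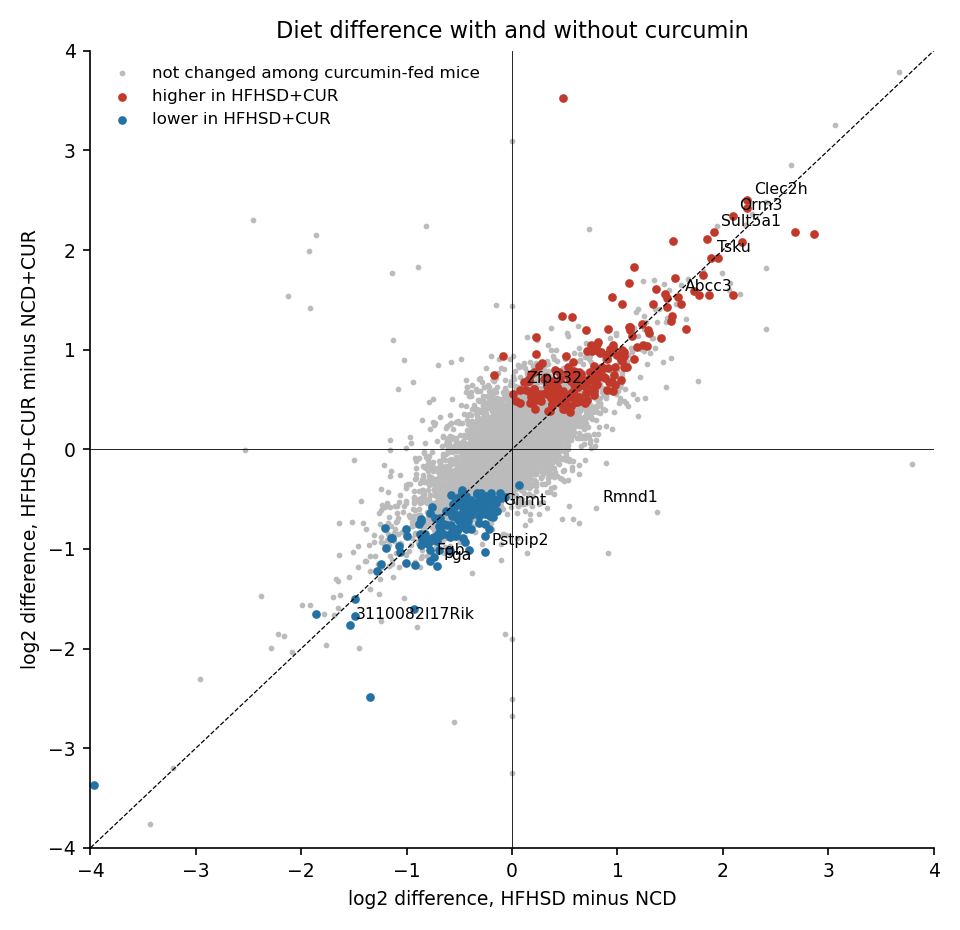
Each point is a tested gene by its log2 diet difference without CUR (x axis, HFHSD minus NCD) and with CUR (y axis, HFHSD+CUR minus NCD+CUR), coloured where it changed with CUR; the dashed line marks equal differences and 12 genes lie outside the axes. Of the 373 changed genes, 370 have the same sign on both axes.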

How the data were processed

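Poly(A)-selected, strand-specific libraries of the left lateral liver lobe were sequenced with reads of 100 bases, 1 liver per mouse. According to the submitters' processing notes TopHat2 (2.0.13) placed the reads on mm10 and Cuffdiff (2.2.1) was run with UCSC annotations; the authors deposited 1 table of FPKM for 23997 genes and 12 libraries. Whether counting used strand is not given in the sources used here, so reads of overlapping or near-identical genes may be split among them. Depth cannot be read from FPKM, and an exact 0 can be a failed estimate. Further deposited sheets hold the authors' own fold changes, p-values and enrichment results for CUR, and were not used.

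Values were taken as log2(FPKM + 0.1), genes averaging 1 FPKM or more across the 6 curcumin libraries were kept, and limma (3.58.1, R 4.3.3; trend and robust moderation) was fitted to all 12 libraries with a mean per group, so that the 4 groups share 1 estimate of the spread. P-values are two-sided, were adjusted over all 10591 genes by the Benjamini-Hochberg method and measure the spread between these mice. The difference of the diet effects was the interaction contrast. The replicate numbers of the labels paired libraries within a diet, with and without CUR (every correlation of same-numbered deviations was at least 0.16), but not across the diets (0.02, -0.06 and 0.10 between the 2 curcumin groups). A fit with these pairs as a block stands beside each named gene whose call it changes. List counts that it moves are given with the list or at the end. On simulated data of 10591 genes for HFHSD+CUR against NCD+CUR, 38.8%, 85.1% and 98.5% of genes changed by 1.5-, 2- and 4-fold were recovered, with 25 false calls. The simulated noise was drawn independently for each library, with no shared deviations and no outlying liver. These rates therefore need not hold for the real livers.

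Named were the 12 largest rises and 12 largest falls among changed genes without overlap averaging 5 FPKM or more. Also named were list members of smallest p together with members that changed, diet genes chosen from knowledge, and 4 genes per direction for the difference of effects. The genes and the 53 lists (32 pathways, 5 families matched by symbol, 16 marker lists) were chosen with earlier results of these data known. Alternatives were other pseudocounts, filters and scalings, removal of GC and length trends, array weights, age, a replicate block, fewer libraries and a stricter threshold. Leaving out libraries without CUR, the alternatives for HFHSD against NCD, the block of libraries within a diet and the ER stress motif were added after seeing the data. Some genes that meet these rules are not reported here.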

Additional observations from a re-analysis of the deposited data

How the results depend on the processing

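The counts for HFHSD+CUR against NCD+CUR, 215 genes that rose and 158 that fell, moved by over 1.5 times under several settings. They were 131 and 88 without a filter on low values, 114 and 75 with only the 6 curcumin libraries, 775 and 884 with age as a covariate, 701 and 648 with array weights, and 36 and 20 at an adjusted p under 0.05. The number that fell was 291 after quantile normalization, 252 after removal of GC and length trends and 94 without trended and robust moderation. Leaving out 1 library gave 5 to 314 genes that rose and 0 to 341 that fell. For HFHSD against NCD the 502 changed genes became 2042 with age as a covariate, 3285 with array weights, 180 at an adjusted p under 0.05, and 55 to 1746 when 1 library was left out. The cause of these shifts was not tested. The difference of the diet effects called 0 genes in every setting.

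Same-numbered libraries of the 2 curcumin groups did not deviate together (correlations of 0.02, -0.06 and 0.10 across genes), so the numbers do not pair these 2 groups. With the replicate number as a block across the diets, 383 genes rose and 408 fell over 12 libraries, 101 rose and 99 fell in the 6 curcumin libraries, and 878 changed in HFHSD against NCD. With the libraries of 1 diet and 1 number as a block, 263 rose and 202 fell with CUR, 585 changed without CUR, 244 changed in both in the same direction, and none (0) differed between the diet effects by either form of the block. Among the named genes this block changed only the calls given beside Gm10052, Hspa5, Hyou1, Pdia6 and Cyp2b13. It also moved list counts: 9 interferon genes changed instead of 6, 10 ER translocation and coat genes instead of 7, and 11 cytosolic ribosomal genes instead of 9. Conjugating enzymes went from 5 to 6 and P450 genes from 8 to 9. The counts of the ER chaperone, PPAR alpha and antioxidant lists are given above.

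No changed gene turned its sign in any setting (0 of 373). Where a library was left out or the pseudocount changed, no turn was possible, since the groups did not overlap in these genes. Of the genes named above that did not pass, 3 turned their sign. The log2 difference of Cd74 was -0.077 with array weights and ranged from -0.055 to 0.46 when 1 library was left out. That of Saa1 was -0.21 with age as a covariate, -0.057 with array weights and -0.49 to 1.06 when 1 library was left out. That of Cyb5r1 ranged from -0.031 to 0.12 when 1 library was left out. The list medians near 0 (such as lipogenesis, fatty acid oxidation, senescence and oxidative phosphorylation) changed sign between settings, whereas those of the interferon, antigen presentation, P450, ER, cytosolic ribosomal and endothelial lists did not. With 3 mice a group, changes near 1.5-fold were often missed in the simulation, and 1 of the 3 chow mice was older by label.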
